A study of Cricetulus griseus with 3 samples.

Results

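YAP1 and WWTR1 (also called TAZ) are the transcriptional coactivators at the end of the Hippo pathway. In that pathway the LATS kinases phosphorylate both proteins and keep them out of the nucleus. When they escape, they bind TEAD transcription factors on DNA and switch on genes such as CCN1, CCN2 and ANKRD1. AMOTL2 and LATS2 are also such targets, and their products restrain YAP1 and WWTR1 in return. The transcripts described here are 9 genes of 16069 distinct human protein matches in the deposited table, which lists 21607 Chinese hamster RefSeq transcripts. They were chosen by the human UniProt entry that the authors had assigned to each hamster transcript, and all 9 were found. TEAD1 was the only member with several transcripts, 3 in all, and the transcript with the most reads was used. Human gene names are used throughout.

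The RNA was poly-A RNA that came with microtubules isolated from CHO cells, an ovary-derived Chinese hamster line, with 1 library for each of 3 preparations. All cells were first held in 2 mM thymidine, which stalls DNA synthesis, for 16 h. Interphase microtubules were taken from such cells. For the other libraries, cells had 5 h without thymidine and 4 to 5 h with nocodazole, a microtubule poison, at 0.1 ug/ml. Mitotic cells were then knocked off the dish and kept in fresh medium, for 15 min before mitotic microtubules were prepared and for 65 min before midbodies were, the bridges that join daughter cells at the end of division. Structure, stage of division and time in fresh medium cannot be told apart in these groups. Against interphase the same holds for the release from thymidine, the cell cycle stage, the drug and the shake-off. No whole-cell RNA was analysed here.

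Depth was 12672056 reads for interphase, 8059745 for mitotic microtubules and 5134865 for midbodies. Since each group is a single library, differences could not be set against replicate spread and none was tested. Intervals in parentheses are exact 95% intervals on the reads and cover counting error only. Levels are RPKM, reads relative to transcript length and library size. Comparisons between different genes thus rest on the transcript lengths, whose errors the intervals do not cover. A log2 ratio is the difference of log2(RPKM + 1) between libraries. A transcript counts as higher or lower where that ratio reaches 2-fold. Folds and factors are plain ratios of reads per library total. Of 5 genes of the G2 phase and mitosis, 1 passed 2-fold between midbodies and mitotic microtubules, the midbody motor gene KIF23, higher with a log2 ratio of 1.32. Over all compared transcripts, 2.09% were higher and 1.8% lower. The summed level of the 5 genes was 596 RPKM in the interphase, 562 in the mitotic and 829 in the midbody library. KIF23 supplied 79.0, 109 and 274 RPKM in the same order. TOP2A was also highest in midbodies, at 238 RPKM. CCNB1, PLK1 and CDC20 were instead highest in interphase, at 108, 128 and 161 RPKM. They stood at 62.8, 90.3 and 105 RPKM in the mitotic library and 68.3, 102 and 147 in midbodies. The 3 marker genes of blood, liver and glia (PTPRC, ALB and GFAP) had at most 1 read in any library.

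The secreted matrix proteins CCN1 and CCN2 are the classic readouts of YAP and TEAD activity, and are also immediate early genes. CCN1 (XM_003512942.1, human match O00622) stood at 74.6 RPKM in interphase, 35.7 in mitotic microtubules and 79.1 in midbodies. It was thus low in the mitotic library alone, and the midbody level was 2.22-fold the mitotic one (1.98 to 2.49). Midbody and interphase levels lay within counting error of each other, with a ratio of 1.06 (0.970 to 1.16). CCN2 (XM_003512011.1, P29279) was the lowest member in every library, at 5.67 RPKM in interphase, 2.09 in mitotic microtubules and 4.29 in midbodies, from 111, 26 and 34 reads. In midbodies its counting interval of 2.97 to 5.99 RPKM overlapped that of YAP1, 3.37 to 6.95, so its last place there is uncertain. The levels of CCN2 dipped in the mitotic library as those of CCN1 did. The midbody to mitotic ratio of CCN2 was 2.05 with the wide interval of 1.20 to 3.56. On the log2(RPKM + 1) scale, which compresses low values, this ratio was 0.78 and so short of 2-fold, but a pseudocount of 0.1 gave 1.003 and put it just past the line. CCN1 exceeded CCN2 per length by 13.2-fold in interphase (10.8 to 16.1), 17.1-fold in the mitotic library (11.5 to 26.4) and 18.5-fold in midbodies (13.1 to 26.9).

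ANKRD1 (NM_001246706.1, Q15327) encodes an ankyrin repeat protein of the nucleus and, in heart muscle, of the sarcomere. Its level was 46.5 RPKM in interphase, 89.5 in the mitotic library and 143 in midbodies. The 3 counting intervals did not overlap, and ANKRD1 was the only member whose level was lowest in interphase. Midbodies exceeded interphase by 3.08-fold (2.80 to 3.39) and mitotic microtubules by 1.60-fold (1.46 to 1.75), and the mitotic library exceeded interphase by 1.93-fold (1.75 to 2.12). ANKRD1 was seventh among the members in interphase and first in both other libraries. Its level relative to CCN1, per length, was 0.623 in interphase (0.572 to 0.679), 2.51 in the mitotic library (2.25 to 2.80) and 1.81 in midbodies (1.64 to 2.00).

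**Figure D1:**
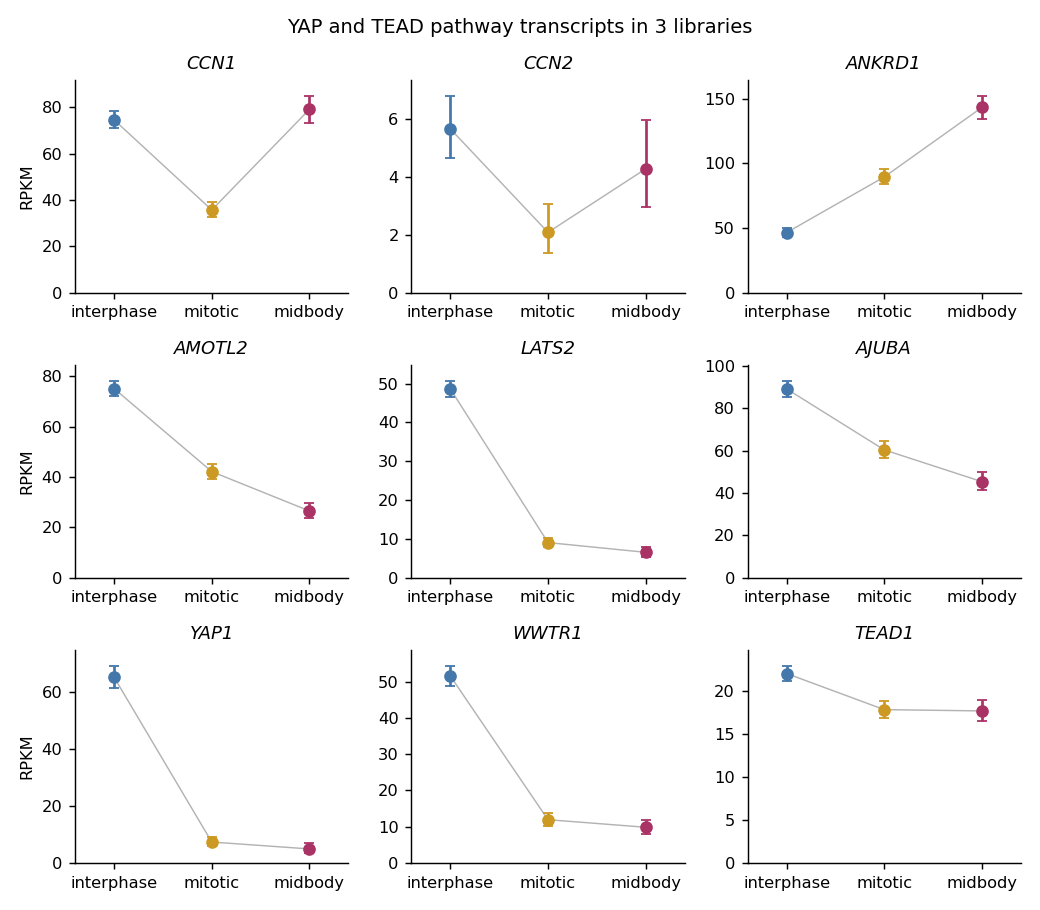
Level of each member in RPKM (vertical axes, from 0, scaled per panel) in the interphase, mitotic and midbody libraries, 1 library each; bars are exact 95% Poisson intervals on the reads and lines only guide the eye. CCN1 and CCN2 dip in the mitotic library, ANKRD1 reaches 143 RPKM in midbodies, and the other 6 members are highest in interphase.

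The regulators among the members had the opposite order to ANKRD1. AMOTL2 (XM_003501947.1, Q9Y2J4), an angiomotin family protein that holds YAP at cell junctions, stood at 75.1 RPKM in interphase, 42.2 in the mitotic library and 26.5 in midbodies. Every step lay outside counting error, and midbodies were below mitotic microtubules by a factor of 1.59 (1.39 to 1.81) and below interphase by 2.83 (2.52 to 3.19). LATS2 (XM_003500425.1, Q9NRM7), one of the kinases that phosphorylate YAP1 and WWTR1, was at 48.6 RPKM in interphase, 9.07 in the mitotic library and 6.56 in midbodies. Most of that difference lay between interphase and the mitotic library, a factor of 5.36 (4.69 to 6.15), against 1.38 (1.10 to 1.74) between mitotic microtubules and midbodies. AJUBA (XM_003506110.1, Q96IF1), a LIM domain scaffold that binds LATS kinases and, in mitosis, Aurora A, was the highest member in interphase, with 89.1 RPKM. It stood at 60.4 RPKM in the mitotic library and 45.4 in midbodies, a smaller span than that of LATS2. Midbodies were below interphase by a factor of 1.96 (1.77 to 2.18), a log2 ratio of -0.96 that did not reach the 2-fold line.

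Both coactivators were far lower in the mitotic and midbody libraries than in the interphase library, YAP1 by the largest factor of any member. YAP1 (XM_003496148.1, P46937) was at 65.3 RPKM in interphase, 7.35 in the mitotic library and 4.92 in midbodies, from 1048, 75 and 32 reads. The mitotic library was lower than interphase by a factor of 8.89 (7.03 to 11.4) and midbodies by 13.3 (9.34 to 19.5). In bulk RNA such as this, fewer cells with a transcript, less of it per cell and less of it recovered with the microtubules cannot be told apart. WWTR1 (XM_003508145.1, Q9GZV5) stood at 51.5 RPKM in interphase, 11.9 in the mitotic library and 9.83 in midbodies. It was lower than interphase by a factor of 4.32 (3.72 to 5.05) in the mitotic library and 5.24 (4.29 to 6.47) in midbodies. For both coactivators the interval of the midbody to mitotic ratio held 1, at 0.428 to 1.03 for YAP1 and 0.643 to 1.05 for WWTR1. YAP1 exceeded WWTR1 per length in interphase, with a ratio of 1.27 (1.17 to 1.38). WWTR1 exceeded YAP1 in the mitotic library, with 0.617 (0.466 to 0.809), and in midbodies, with 0.501 (0.326 to 0.751). Which of the 2 is higher also rests on the lengths used, 1266 bases for YAP1 and 2041 for WWTR1.

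TEAD1 (XM_003507116.1, P28347), the DNA-binding partner of the coactivators, varied least of the members across the 3 libraries. It was at 22.0 RPKM in interphase, 17.8 in the mitotic library and 17.6 in midbodies, and its reads were divided among its 3 transcripts. Midbody and mitotic levels had a ratio of 0.992 (0.905 to 1.09), and both lay below interphase, by factors of 1.25 (1.15 to 1.35) and 1.24 (1.15 to 1.32).

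With the 3 TEAD1 transcripts summed, TEAD1 reached 65.4 RPKM in interphase, 53.1 in the mitotic library and 52.2 in midbodies. Its paralogs TEAD4 and TEAD3 went opposite ways. TEAD4 was at 67.0, 30.2 and 37.8 RPKM in the same order, and TEAD3 at 31.1, 72.9 and 60.2. TEAD2 had 2 reads in the mitotic library and none elsewhere. The summed TEAD level was therefore close in all 3 libraries, at 164, 156 and 150 RPKM, while its makeup differed: TEAD3 supplied 19.0% of it in interphase, 46.6% in the mitotic library and 40.1% in midbodies. The sum of YAP1 and WWTR1 was 117 RPKM in interphase, 19.3 in the mitotic library and 14.8 in midbodies, so TEAD transcripts exceeded coactivator transcripts by 1.40-fold, 8.12-fold and 10.2-fold. Reads that paralogs share could shift single TEAD values. The sums and their ratios also rest on the transcript lengths used. These were 1266 bases for YAP1 and 1416 for TEAD3, but 8504 for the TEAD1 transcript with the most reads.

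**Figure D2:**
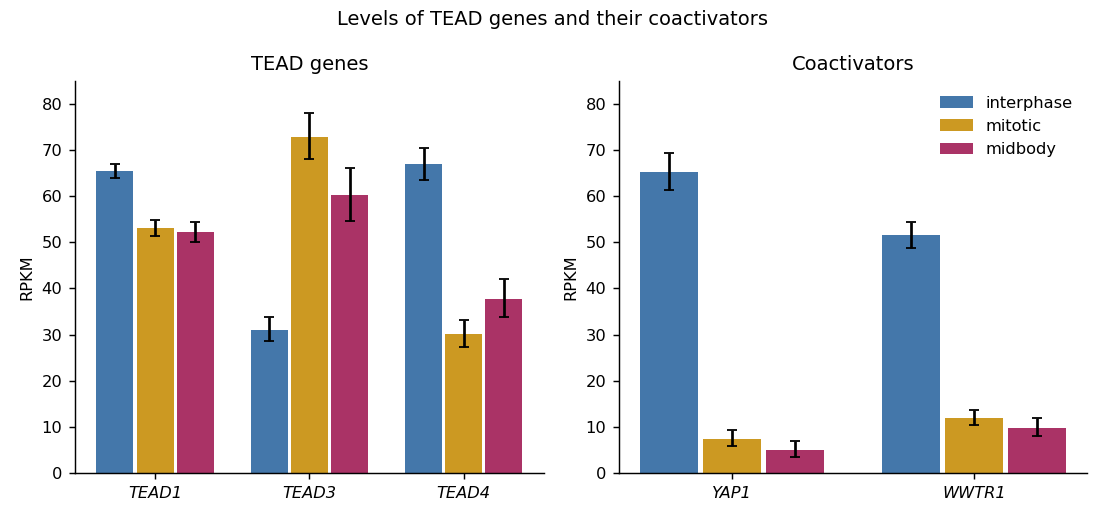
RPKM (vertical axes, from 0) of the TEAD genes, each summed over its transcripts, and of the coactivators in the interphase, mitotic and midbody libraries; bars are exact 95% Poisson intervals on the reads. TEAD3 is highest in the mitotic library at 72.9 RPKM and TEAD4 in interphase at 67.0, and YAP1 and WWTR1 stand far higher in interphase than in either other library.

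Between midbodies and mitotic microtubules, 1 of the 9 members was higher by 2-fold or more, CCN1 with a log2 ratio of 1.13, and 0 were lower. Among all 13131 compared transcripts, 2.09% were higher and 1.8% lower, and the members' count rests on 1 gene. A pseudocount of 0.1 made it 2 members, with CCN2. The targets did not lie together in this comparison. CCN1 was above 98.6% of compared transcripts, CCN2 above 95.98% and ANKRD1, at 0.67, above 94.5%. AMOTL2 and LATS2, which are also targets, lay low, above 6.63% and 16.0%. The 6 members other than CCN1, CCN2 and ANKRD1 had ratios from -0.65 for AMOTL2 to -0.011 for TEAD1. The median of the 9 was -0.25 against -0.03 over all transcripts. The TEAD1 value changed sign, to 0.011, under trimmed mean of M values scaling.

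Against interphase, 5 of the 9 members were lower in mitotic microtubules by 2-fold or more and 0 were higher, where 20.7% of 13176 compared transcripts were lower and 16.6% higher. YAP1, LATS2 and WWTR1 had log2 ratios of -2.99, -2.30 and -2.02. CCN2 and CCN1 stood near the line at -1.11 and -1.04, and neither reached it with a pseudocount of 5, which left 3 members. YAP1 was above only 0.600% of compared transcripts, LATS2 above 2.74% and WWTR1 above 4.37%. The median of the 9 was -1.04, against -0.13 over all transcripts.

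In midbodies against interphase, 4 of the 9 members were lower by 2-fold or more, where 20.8% of 13059 compared transcripts were, and 1 was higher, where 14.7% were. YAP1, LATS2, WWTR1 and AMOTL2 had log2 ratios of -3.49, -2.71, -2.28 and -1.47, and ANKRD1 had 1.60. CCN1 at 0.08, CCN2 at -0.34, TEAD1 at -0.30 and AJUBA at -0.96 lay within 2-fold. YAP1 was above only 0.0766% of compared transcripts. The median of the 9 was -0.96 against -0.15 over all. This comparison shares a library with each of the other comparisons, so the values are given side by side and not as separate evidence. In S phase genes, the same comparison gave 1 of 5 at least 2-fold lower and a median of -0.60, and their summed level was 569 RPKM in interphase, 315 in the mitotic library and 414 in midbodies. Their part in the members' differences was not tested.

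**Figure D3:**
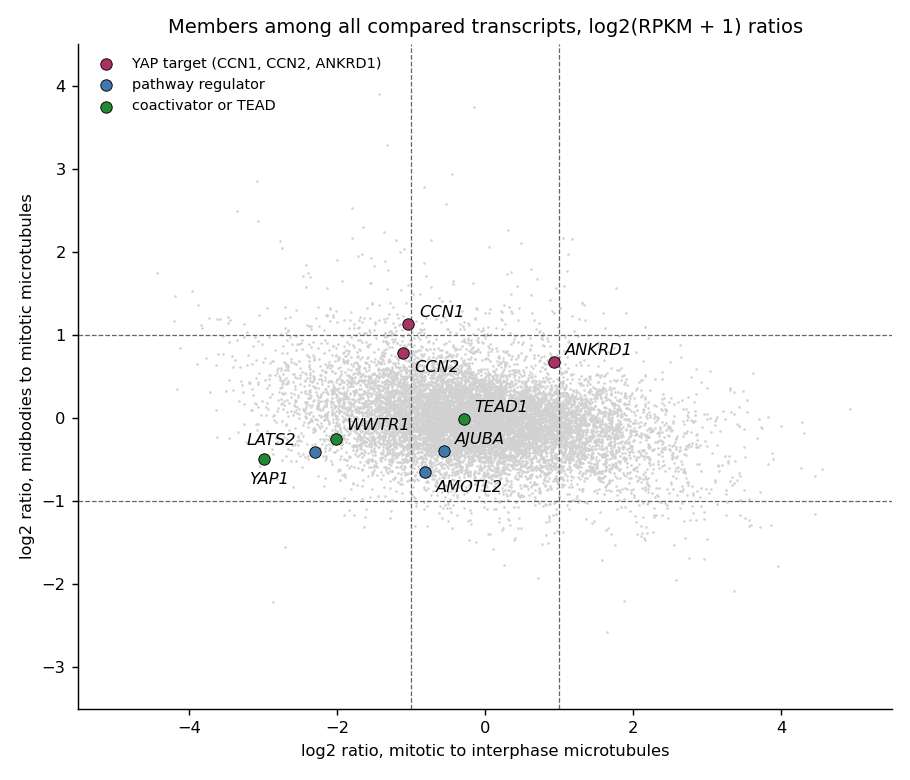
Log2(RPKM + 1) ratio of mitotic to interphase microtubules (horizontal) against that of midbodies to mitotic microtubules (vertical), for 12716 transcripts compared in all 3 pairs (grey) and the 9 members (coloured by role); dashed lines mark 2-fold, and both axes contain the mitotic library. CCN1, CCN2 and ANKRD1 lie above 0 on the vertical axis, and YAP1, LATS2 and WWTR1 lie at the left with ratios of -2.99, -2.30 and -2.02.

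In order of level, 6 of the 9 members ran from interphase through mitotic to midbody, highest first: AMOTL2, LATS2, AJUBA, YAP1, WWTR1 and TEAD1. This order held for 24.6% of the 13325 transcripts that reached 1 RPKM in any library. The order of CCN2, interphase then midbody then mitotic, held for 24.3%, that of ANKRD1, midbody then mitotic then interphase, for 17%, and that of CCN1, midbody then interphase then mitotic, for 5.38%. The remaining orders, with mitotic highest, had 0 members and held for 22.9% and 5.77%. For CCN1, YAP1, WWTR1, TEAD1 and CCN2, 1 pair of neighbouring levels in that order lay within counting error.

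Further genes of the pathway were taken from lists of Hippo kinases and upstream regulators, other TEAD and VGLL factors, other genes of a YAP target signature, and other CCN genes. Of 23 kinases and upstream regulators, 20 could be compared. In the mitotic library against interphase 9 of them were lower by 2-fold or more and 2 higher, with a median log2 ratio of -0.61. In midbodies against interphase 8 were lower and 1 higher, with a median of -0.49. Over all compared transcripts, 20.7% were lower and 16.6% higher in the first comparison, and 20.8% and 14.7% in the second. Between midbodies and mitotic microtubules 0 of the 20 passed 2-fold, where 2.09% of all compared transcripts were higher and 1.8% lower. The median of the 20 was -0.02. MOB1A, the LATS cofactor, was at 84.5 RPKM in interphase, 29.2 in the mitotic library and 22.1 in midbodies. STK4, one of the kinases that act on LATS, was at 63.5, 25.3 and 38.4 RPKM in the same order. SCRIB, a cell polarity scaffold, went the other way, at 46.4, 107 and 84.1 RPKM, and TAOK2, a kinase of the TAO family, was at 32.7, 47.7 and 31.9.

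Further regulators, most of them relatives of the members, were picked after their values had been seen. LATS1 stood at 28.2 RPKM in interphase, 16.1 in the mitotic library and 14.2 in midbodies, a smaller span than that of LATS2. LATS1 relative to LATS2, per length, was 0.580 in interphase (0.546 to 0.615), 1.77 in the mitotic library (1.54 to 2.05) and 2.17 in midbodies (1.76 to 2.68). Per length, LATS2 was thus the more abundant of the kinase pair in interphase only. Which of the 2 is higher also rests on the lengths used, 6742 bases for LATS1 and 3325 for LATS2. In plain reads LATS1 was the higher in interphase too, with 2409 against 2049. The angiomotin gene AMOTL1 was at 83.1, 20.1 and 23.1 RPKM in the same order, and AMOT was at 8.58, 1.35 and 1.57. The scaffold LIMD1, a relative of AJUBA, was at 47.5, 15.2 and 13.7 RPKM, whereas WTIP, another relative of AJUBA, was highest in the mitotic library at 29.1, 43.0 and 34.5. STK38, a kinase related to LATS, was also higher outside interphase, at 42.3, 106 and 104 RPKM. NF2, an upstream activator of LATS, was at 67.1, 22.5 and 19.3 RPKM.

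Of the 7 other TEAD and VGLL entries, 4 could be compared. In the mitotic library against interphase 3 of these were at least 2-fold lower (TEAD4, VGLL3 and VGLL4, the last named after their values were seen) and 1 was higher, TEAD3, with log2 ratios of -1.13, -1.90, -1.18 and 1.20. VGLL proteins are TEAD cofactors, and VGLL4 competes with YAP1 for TEAD. Over all compared transcripts, 20.7% were lower and 16.6% higher in the mitotic library than in interphase. In midbodies against interphase 2 of the 4 were lower and 0 higher, against 20.8% and 14.7% of all compared transcripts. None of the 4 passed 2-fold between midbodies and mitotic microtubules, where TEAD4 had 0.32 and TEAD3 -0.27.

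Of 17 other genes of the YAP target signature 14 were compared between midbodies and mitotic microtubules, where 2.09% of all compared transcripts were higher and 1.8% lower. Of the 14, 0 passed 2-fold in either direction and the median log2 ratio was -0.29. NUAK2, a kinase gene, was the highest at 0.63, from 22.1 RPKM in midbodies against 13.9 in the mitotic library and 4.20 in interphase, an order like that of ANKRD1. PTPN14, a phosphatase that binds YAP1, had 0.37, whereas CRIM1, a membrane protein gene, had -0.56 and ARHGEF17 had -0.42. Against interphase, 4 of 14 were at least 2-fold higher and 3 lower in the mitotic library, with a median of 0.40. Of these 4, NUAK2 apart, NT5E, RBMS3 and TGFB2 (named after their values were seen) were at 2.80, 5.06 and 1.54 RPKM there. RBMS3 and TGFB2 had 5 and 2 transcripts with the same human match, and only the one with the most reads is given. In midbodies 2 of 13 (15.4%) were higher and 3 (23.1%) lower than in interphase, with a median of 0.05. These shares were close to the 14.7% and 20.8% over all compared transcripts. Among the other CCN genes, CCN4 was at 83.2 RPKM in interphase, 42.7 in the mitotic library and 56.5 in midbodies. CCN6 passed 2-fold downward from mitotic microtubules to midbodies, but from 26 reads to 3, and CCN3 had no reads. Of the other CCN genes 3 could be compared there, with a median of 0.33.

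**Figure D4:**
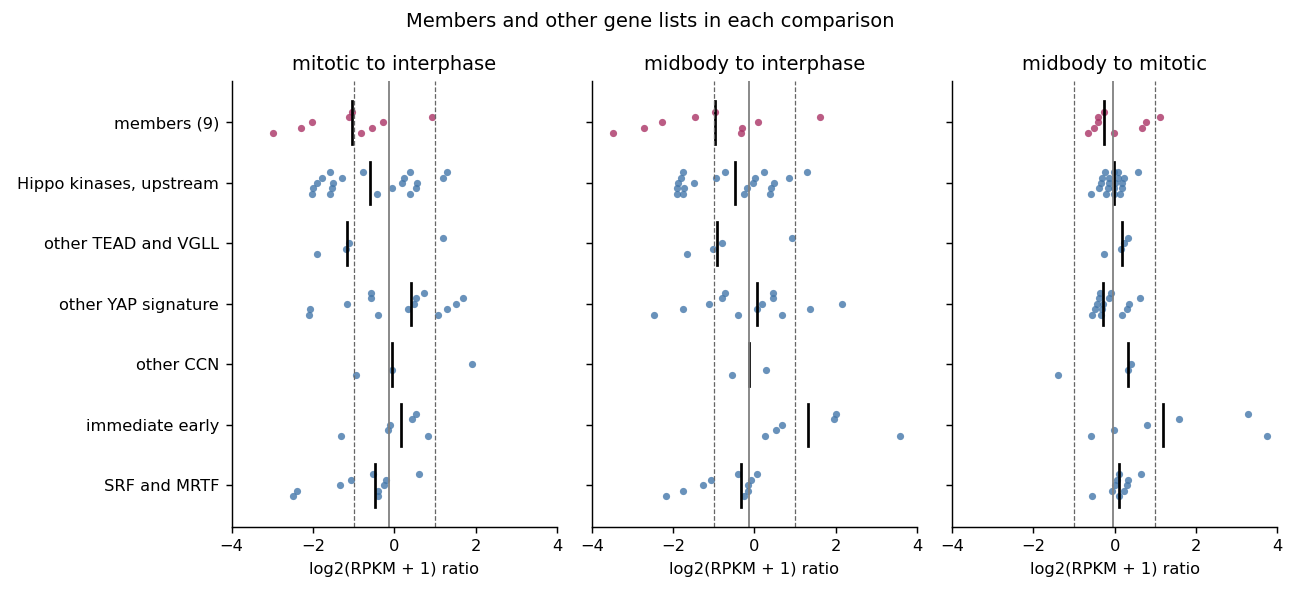
Log2(RPKM + 1) ratios (horizontal axes) in the 3 comparisons for the 9 members and the other gene lists, 1 point per gene; black bars are list medians, the grey line is the median of all compared transcripts and dashed lines mark 2-fold. Between midbodies and mitotic microtubules nearly all pathway genes lie within 2-fold, while 3 immediate early genes lie beyond it. Against interphase the members reach furthest to the left. Genes of the kinase, other YAP signature and SRF and MRTF lists also extend there.

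CCN1 and CCN2 can also be set beside immediate early genes, which serum and stress induce within minutes. Of 7 such genes 6 had a row, and 3 of them passed 2-fold in midbodies over mitotic microtubules, with a median log2 ratio of 1.19. Over all compared transcripts, 2.09% did. ATF3, a stress-induced factor gene, was at 10.3 RPKM in interphase, 9.09 in the mitotic library and 134 in midbodies, and JUN at 62.1, 83.7 and 253. FOS was at 47.3, 18.3 and 188 RPKM, and JUNB was at 117, 108 and 189. The other genes of the list, named after their values were seen, were not higher in midbodies than in mitotic microtubules: EGR1 was at 86.8, 155 and 103 RPKM and MYC at 161, 233 and 233. FOS, like CCN1 and CCN2, was lowest in the mitotic library, where all 3 were at least 2-fold below interphase. So were 20.7% of all compared transcripts, and CCN1 and CCN2 missed the line with a pseudocount of 5. The other 5 immediate early genes lay within 2-fold in that comparison, with JUN, EGR1 and MYC higher in the mitotic library than in interphase. The part of time in fresh medium in the values of CCN1 and CCN2 was not tested.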

How the data were processed

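Per the labels' protocols, RNA was purified with Qiagen RNeasy, selected with an Exiqon LNA dT kit and sequenced from Illumina TruSeq libraries. For the aligner, counter, genome build and strand, nothing is stated (not given in the sources used here). Reads are the authors' deposited estimated counts, not normalized, and fractional (by over 0.001 read) in 15.7% of midbody, 16.8% of mitotic and 14.7% of interphase values. The authors computed RPKM from them, per the file headers; RPKM divided by reads gave 1 length per transcript. The authors' deposited BLASTX E-values, which are not p-values of a test made here, were at most 1e-20 for 20821 transcripts with a human match. The Metaphase columns belong to the sample titled Mitosis, the only one of that stage; the enrichment score columns were not used.

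The table holds no gene names. Members and lists were matched by human UniProt accession, and names were assigned by hand from it; 1 member, ANKRD1, was also matched by accession to its symbol in a RefSeq gene table. Where rows shared an accession, the one with the most reads was used. Members and lists were chosen with earlier results of these data known.

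Ratios are of log2(RPKM + 1) over transcripts at 1 RPKM or more in 1 of the compared libraries; the share of all transcripts past 2-fold is the background. Reads were rounded for exact Clopper-Pearson and Poisson 95% intervals, which cover counting error only, since PCR copies were not marked. A count of 0 allows 3 reads, or 0.237 CPM for interphase, 0.372 for mitotic microtubules and 0.584 for midbodies. From each other list, up to 4 genes with the largest absolute log2 midbody to mitotic ratios at 10 RPKM and 50 reads were named. The S phase genes were an exception, given only as a list. Others are marked as chosen after their values were seen, CCN6, CCN3 and CCNB1 included. Alternatives were pseudocounts of 0.1 and 5, no filter, a filter at 10 RPKM, median of ratios and edgeR 4.0.16 TMM scaling, CPM, and summed rows. The procedure was tested on simulated data. Python 3.11.15, pandas 2.3.3 and scipy 1.17.1 were used.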

Additional observations from a re-analysis of the deposited data

How the results depend on the processing

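With 1 library per group, counting intervals are the only error available, and the low counts of CCN2 and of YAP1 in midbodies limit their ratios most. No paired analysis was possible because each group holds 1 library. Of 211 alternative values of single members, 205 moved by less than the counting error of the log2 ratio and 6 by more, all with a pseudocount of 5, for LATS2, YAP1 and WWTR1 against interphase, with no change of direction or of their 2-fold call. CCN1 in mitotic against interphase came to -0.99 under median of ratios scaling and so missed the line, and CCN2 there came to -0.59 with a pseudocount of 5. A filter at 10 RPKM removed CCN2 from every comparison and LATS2 and YAP1 from midbodies against mitotic microtubules.

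Between midbodies and mitotic microtubules, all transcripts numbered 274 higher and 237 lower; these became 458 and 479 with a pseudocount of 0.1, 99 and 31 with 5, and 174 and 81 with the filter at 10 RPKM. Members higher became 2 with a pseudocount of 0.1. The 4 other pathway lists together had 0 higher and 1 lower, which became 1 higher with CPM, and 0 lower with a pseudocount of 5 or the filter at 10 RPKM. In midbodies against interphase, the 1921 transcripts higher became 1091 with a pseudocount of 5 and 1278 with the filter at 10 RPKM, the median of all turned from -0.15 to 0.020 without a filter, and that of the lists went from -0.40 to -0.15 without a filter and -0.55 at 10 RPKM. In mitotic against interphase, the 2183 higher became 1196 and 1399, the 5 members lower became 3 with a pseudocount of 5, the 8 list genes higher became 4 under either setting, the median of all went from -0.13 to 0.063 without a filter and -0.23 at 10 RPKM, and that of the lists from -0.41 to -0.062 and -0.57. A larger pseudocount compresses low values and a higher filter tests fewer transcripts.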

Other observations

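Serum response factor (SRF) and its MRTF coactivators act on many of the same genes as YAP and TEAD. Of 10 genes of this list, 4 were at least 2-fold lower than in interphase in the mitotic library and 4 in midbodies. Over all compared transcripts, 20.7% and 20.8% were. The median log2 ratios of the list were -0.47 and -0.34. Between midbodies and mitotic microtubules 0 of the 10 passed 2-fold, where 2.09% of all compared transcripts were higher and 1.8% lower. The median of the list was 0.11 there. SRF itself was at 74.9 RPKM in interphase, 13.5 in the mitotic library and 21.6 in midbodies. MRTFB, one of its coactivators, was at 7.75, 12.4 and 8.14 RPKM in the same order, and FLNA, the actin crosslinker gene, at 180, 137 and 160. FHL2, a LIM protein gene, was at 88.5, 66.1 and 83.1 RPKM.

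The transcripts whose pair of ratios lay nearest to that of CCN1, out of 10404 candidates over the 3 libraries, were XM_003499517.1 (human match Q9BVC5) at a distance of 0.0531 log2 units, XM_003506134.1 (O43281) at 0.107 and XM_003509991.1 (Q641Q3) at 0.108. The nearest stood at 14.8 RPKM in interphase, 6.39 in the mitotic library and 15.0 in midbodies.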
